A study of Mus musculus with 23 samples.

Results

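The 2 middle furan doses of a mouse liver study, 4 and 2 mg/kg body weight per day, were compared directly, without passing through the untreated animals. The comparison holds every array labelled with one of these doses, which is 4 arrays at 4 mg/kg and 5 arrays at 2 mg/kg, 9 of the 23 arrays analysed here. All animals were female B6C3F1 mice that received furan in corn oil by gavage on each of 21 days, and the liver was taken 4 h after the last dose. The mice were bought at 5 to 6 weeks of age and rested for 7 days or more before dosing. The other 14 arrays hold 5 vehicle controls given corn oil alone, 4 mice at 1 mg/kg and 5 mice at 8 mg/kg, and they entered the comparison only through the estimate of the spread between animals. Each array carried liver RNA of 1 mouse labelled with Cy5 beside a universal mouse reference RNA labelled with Cy3. Every level below is therefore log2 of liver over reference, and every difference is the mean at 4 mg/kg minus the mean at 2 mg/kg on that log2 scale, so that a value of 1 is a 2-fold difference.

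Furan is a small volatile ring that arises in heated foods, and the liver is the main organ it injures in rodents. Cytochrome P450 2E1 opens the ring to cis-2-butene-1,4-dial, a reactive dialdehyde that binds glutathione, proteins and DNA. Cells meet such damage through the transcription factor p53, which drives growth arrest and death genes, through NRF2, which drives glutathione and detoxification enzymes, and through stress kinases that act on Jun and Atf3.

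No gene passed the test between the doses. Of the 19899 genes measured, 0 had an adjusted p under 0.05 in the limma fit with Benjamini-Hochberg adjustment, which is 0% of the genes tested. At an unadjusted p under 0.05 the count was 958 genes, or 4.81% of those tested, with 419 genes (2.11%) higher at 4 mg/kg and 539 genes (2.71%) lower. The smallest adjusted p in limma was 0.0644, for a transcript listed only as ENSMUST00000115431. A fit on the 9 arrays alone called 0 genes as well, with a smallest adjusted p of 0.151 in limma. The median difference over all genes was -0.02.

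The comparison was precise enough to bound most differences. The median standard error of a gene's difference was 0.16, and its 95% confidence interval reached a median of 0.32 to either side. For 17744 genes, 89.2% of those tested, the whole interval lay within a 2-fold difference, and for 13086 genes (65.8%) it lay within a 1.5-fold difference. Measured differences beyond 2-fold were found in 101 genes. The median correlation between arrays over all genes was 0.97 within a dose and 0.97 between the doses. The count of probes well above background ran from 22011 to 30120 per array, and 0 liver-channel spots were saturated.

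**Figure D1:**
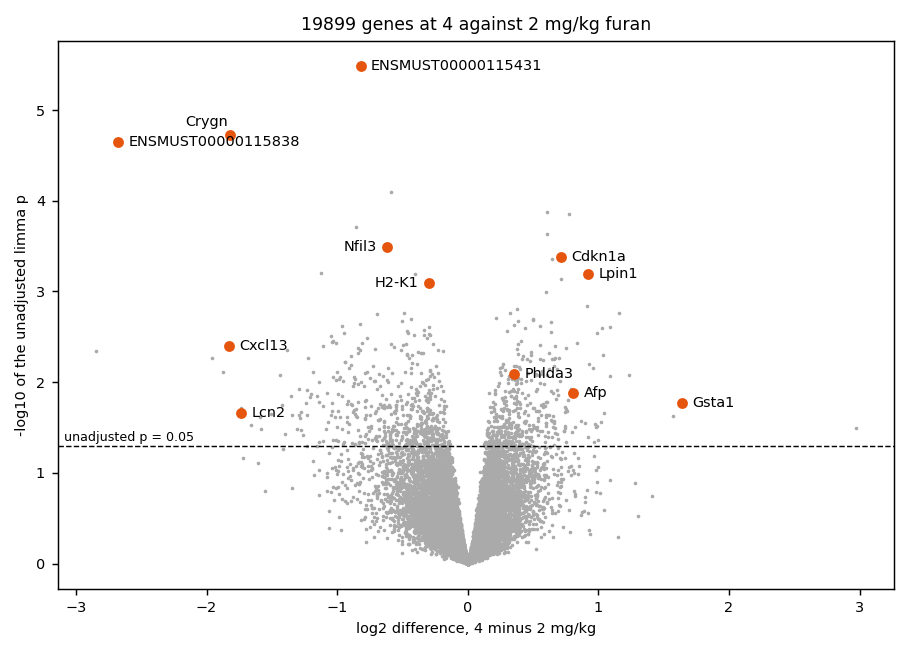
Each grey point is 1 of 19899 genes, with its log2 difference (4 minus 2 mg/kg) across and -log10 of its unadjusted limma p upwards; orange points are named transcripts and the dashed line marks an unadjusted p of 0.05. The points above the line number 958, and none reaches an adjusted p of 0.05.

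Several arrays stood apart in transcripts that do not come from hepatocytes, and this bears on the results that follow. Across 9 pancreatic markers, 2 mg/kg replicate 1, 2 mg/kg replicate 5 and 4 mg/kg replicate 1 lay 2.77, 3.56 and 3.53 above the mean of the 9 arrays, and the other 6 arrays lay between -1.78 and -1.52. All 9 markers were well above background on those 3 arrays, and 4 of the 9 on each of the other 6. Cpb1, a pancreatic carboxypeptidase, read 9.64, 10.65 and 10.90 on those 3 arrays and between -0.16 and 1.59 elsewhere. Amy2a5 and Ins2 did not set those arrays apart, while the rest of the 9 markers did. Amy2a5 read 7.65, 7.83 and 8.70 on those 3 and 8.68 on 2 mg/kg replicate 2. Ins2 read 0.52, 1.51 and 1.10 on those 3 and 1.14 on 2 mg/kg replicate 4. The fat-cell markers Adipoq, Cfd and Plin1 followed the same arrays, with mean deviations of 2.68, 3.07 and 3.86. The remaining arrays lay between -2.46 and -1.53 for these fat-cell markers, except 2 mg/kg replicate 4 at 0.42.

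A different array carried neutrophil transcripts. On 2 mg/kg replicate 4 the 6 neutrophil markers averaged 3.34 above the mean of the 9 arrays, against -0.77 to 0.14 on the other 8. The granule gene Ltf, which encodes lactoferrin, read 6.69 there and Ngp read 5.46. Both were well above background on that array alone among the 9, while Mmp8 was well above background on none. S100a8 and Camp were also highest there, at 3.06 and 4.72. S100a9, well above background on all 9 arrays, was not. It read 7.61 there and 7.74, 8.14 and 7.84 on 2 mg/kg replicates 1, 3 and 5. The 6 hepatocyte markers, among them Alb, Ttr and Hnf4a, were well above background on all 9 arrays. They averaged 1.00 above the mean on 2 mg/kg replicate 5, which was the only array of either dose on its slide, and between -0.41 and 0.25 on the other 8. In whole liver, more cells of a type and more RNA per cell cannot be told apart.

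**Figure D2:**
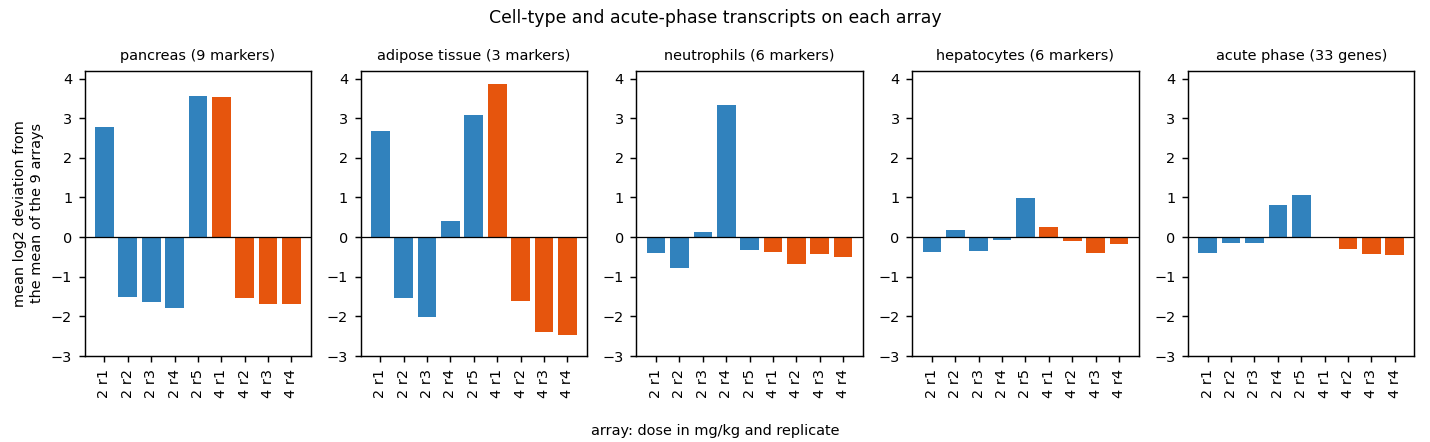
Bars give, for each of the 9 arrays (2 mg/kg blue, 4 mg/kg orange, r for replicate), the mean log2 deviation of a marker set from the mean of the 9 arrays. Pancreatic and fat-cell sets stand above 2.5 on the same 3 arrays, the neutrophil set at 3.34 on 2 mg/kg replicate 4, and the acute-phase set near 1 on 2 mg/kg replicates 4 and 5.

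Cdkn1a, a p53 target whose product p21 halts the cell cycle, had the tenth smallest p of all genes. At 2 mg/kg it read -3.60, -3.39, -3.54, -3.30 and -3.85. At 4 mg/kg it read -2.68, -2.69, -2.97 and -2.96. All 4 arrays of the higher dose lay above all 5 of the lower, which was true of 128 of 19889 genes with a value on all 9 arrays (0.644%), and the reverse order was found in 141 (0.709%). The difference was 0.71 (SE 0.17, 95% interval 0.36 to 1.06), 1.64-fold, and its adjusted p in limma was 0.795. It was positive within each of the 4 slides that held both doses, at 0.71, 0.91, 0.34 and 0.57. Without the pancreas-rich arrays (those 3 and 8 mg/kg replicate 5, which entered the spread) it was 0.54. The vehicle controls lay between -4.73 and -3.52 and the 8 mg/kg arrays between -1.43 and -1.05, so the 4 mg/kg arrays sat between the 2 mg/kg and 8 mg/kg arrays with no overlap on either side.

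Other p53 targets lay closer together at the 2 doses. Phlda3, an Akt inhibitor, read -2.81, -3.05, -2.91, -2.70 and -2.78 at 2 mg/kg and -2.64, -2.45, -2.41 and -2.48 at 4 mg/kg. Here too the groups did not overlap, and the difference was 0.36 (SE 0.12, 95% interval 0.10 to 0.61). Aen, an exonuclease of apoptotic cells, read -0.17, -0.02, -0.20, -0.17 and -0.13 at 2 mg/kg and -0.11, 0.14, 0.03 and 0.26 at 4 mg/kg. The lowest Aen value at 4 mg/kg lay inside the 2 mg/kg range, and the difference was 0.22 (95% interval 0.03 to 0.41). Neither had an adjusted p under 0.05 in limma; both stood at 0.952.

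Genes for p53 feedback and death signalling differed in both directions. Mdm2, the ligase that degrades p53, differed by 0.10 (95% interval -0.08 to 0.29). Bax, a pore-forming death protein, differed by 0.24 (95% interval -0.01 to 0.49), and the death receptor Tnfrsf10b by 0.22 (95% interval -0.23 to 0.67). The stress cytokine Gdf15 read 0.32, 0.15, -0.19, 0.54 and -0.94 at 2 mg/kg and 0.36, 0.77, 0.39 and 0.20 at 4 mg/kg. Its ranges overlapped, with replicate 5 of the lower dose lying far below the rest, and the difference was 0.46 (95% interval -0.05 to 0.96), or 0.23 without that array. Fas, another death receptor, and Bbc3, which encodes the death protein PUMA, had lower means at 4 mg/kg, by differences of -0.38 and -0.49 with 95% intervals that did not reach 0.

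Over the whole p53 list, 34 of 37 genes were measured, meaning that they passed the filter on dim probes, and 0 passed the test. The median difference was 0.15 against -0.02 over all genes, and 26 of the 34 were positive, against 46.1% of all genes. The unadjusted p was under 0.05 for 4 genes with a higher mean at 4 mg/kg (Cdkn1a, Phlda3, Aen and Polk) and for 2 with a lower mean (Fas and Bbc3), beside 2.11% and 2.71% of all genes. Averaged over the list, the 2 mg/kg arrays lay between -0.12 and -0.01 around the mean of the 9 arrays and the 4 mg/kg arrays between 0.03 and 0.14. The list's median was 0.16 without the pancreas-rich arrays and 0.08 without both replicates 4 and 5 of 2 mg/kg. Within the slides that held both doses it was 0.13, 0.01, 0.04 and 0.20, so that it was near 0 on some of them. The 33 measured DNA repair genes had a median of 0.07, with 0 passing the test. Polk, a polymerase that copies past damaged bases, had the smallest p among them, with a difference of 0.38.

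**Figure D3:**
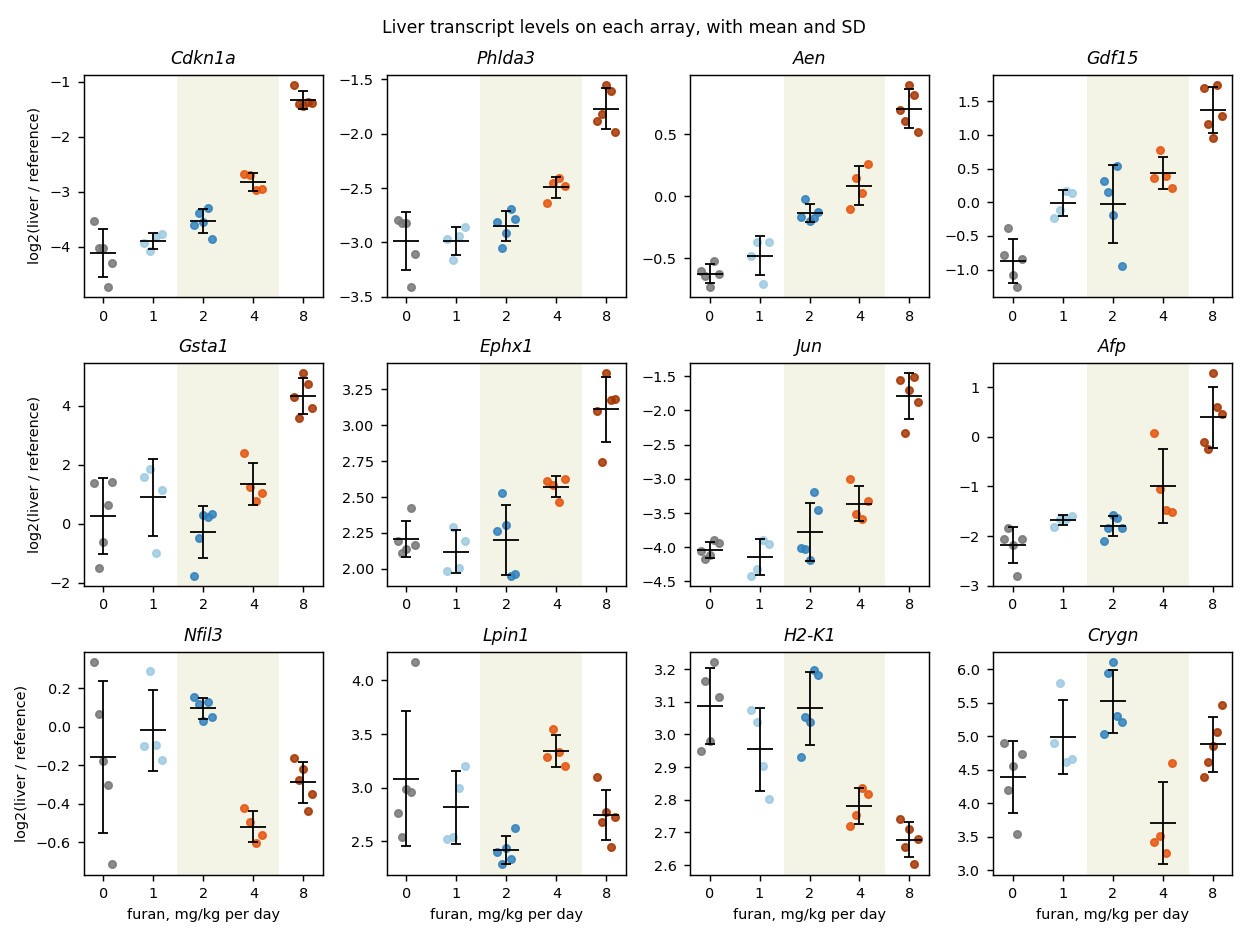
Points are single arrays, black dashes and bars the mean and SD of each dose group (5, 4, 5, 4 and 5 arrays at 0, 1, 2, 4 and 8 mg/kg), for 12 transcripts as log2 of liver over reference; the shaded band holds the 2 doses compared. In Cdkn1a, Phlda3, Gsta1, Afp and Lpin1 all 4 mg/kg points lie above all 2 mg/kg points, and in Nfil3, H2-K1 and Crygn all lie below.

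Detoxification genes were mixed, with the largest differences in alpha-class glutathione transferases. Gsta1, which couples glutathione to reactive aldehydes and other electrophiles, read -1.76, -0.49, 0.30, 0.22 and 0.33 at 2 mg/kg. At 4 mg/kg it read 2.38, 1.25, 0.78 and 1.03. The groups did not overlap, but the gap between the nearest arrays was small beside the spread of each dose, and the difference of 1.64 (SE 0.63) had a 95% interval of 0.33 to 2.95. Without the pancreas-rich arrays the Gsta1 difference was 1.01. Gsta2 differed by 1.04, with ranges that overlapped. Near-identical members of this family may share probe signal, so the split between Gsta1 and Gsta2 is uncertain.

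Ephx1, the microsomal epoxide hydrolase, read 2.26, 2.53, 2.31, 1.95 and 1.97 at 2 mg/kg and 2.61, 2.58, 2.47 and 2.63 at 4 mg/kg. Only the lowest 4 mg/kg value fell inside the range of the lower dose, and the difference was 0.37 (95% interval 0.12 to 0.62). Gstm4 differed by 0.37 and the quinone reductase Nqo1 by 0.29 (95% interval -0.06 to 0.64). Hmox1, which breaks down haem, differed by -0.20 (95% interval -0.74 to 0.35), by 0.03 without 2 mg/kg replicate 4 and by 0.11 in a second probe. Prdx1, a peroxidase, differed by -0.20. Of the 49 NRF2 and glutathione genes, 47 were measured, 0 passed the test, the median difference was 0.00, and 24 were positive and 23 negative. For 44 of the 47 the 95% interval lay within a 2-fold difference.

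Cyp2e1, the enzyme that activates furan, read 6.72, 7.01, 7.07, 6.95 and 8.03 at 2 mg/kg and 6.95, 6.60, 6.84 and 6.95 at 4 mg/kg. The ranges overlapped, and 2 mg/kg replicate 5 lay apart above all others. The difference was -0.32 (95% interval -0.92 to 0.27), or -0.10 without that array. Among 26 measured genes of furan oxidation and conjugate processing the median was 0.03, and 3 had an unadjusted p under 0.05 with a higher mean at 4 mg/kg (Gsta1, Ephx1 and Acy1), with 0 in the other direction. The shares over all genes were 2.11% and 2.71%.

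Stress-kinase and stress-response genes gave no call either. Jun, a subunit of AP-1, read -4.0, -4.03, -4.19, -3.19 and -3.46 at 2 mg/kg and -3.0, -3.52, -3.59 and -3.33 at 4 mg/kg. The ranges overlapped, with 2 mg/kg replicates 4 and 5 inside the range of the higher dose, and the difference was 0.41. Atf3 differed by 0.40 (95% interval -0.02 to 0.82), and by 0.05 without the pancreas-rich arrays. Of the 4 mg/kg arrays, replicate 1 read -1.38 and the other 3 read between -2.59 and -1.98. Myc differed by 0.17 (95% interval -0.72 to 1.05). Of the measured genes of the integrated stress and unfolded protein response, 24 of 34 were negative with a median of -0.12, which was -0.01 without 2 mg/kg replicate 5 and 0.01 without the pancreas-rich arrays. Fgf21, a hormone secreted under stress and fasting, differed by -0.49 (95% interval -1.46 to 0.47), running from -0.86 to 0.09 with single arrays left out. Of 19 measured heat shock chaperones, 14 were positive with a median of 0.07, and Hsp90aa1 differed by 0.06. Hspa1a, which had the smallest p among them, differed in the other direction, by -0.57 (95% interval -1.14 to 0.01). It was well above background on 3 of 5 arrays at 2 mg/kg and on 1 of 4 at 4 mg/kg.

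Proliferation and oncofetal genes had small list medians, whose sign turned on 1 array. Of 46 cell-cycle genes 35 were measured, 0 had an unadjusted p under 0.05 in either direction, and the median difference was -0.03, or 0.11 without 2 mg/kg replicate 4. Of 18 measured oncofetal and tumour marker genes 12 were negative with a median of -0.09, or 0.08 without that array. Mki67, a marker of dividing cells, differed by -0.07, or 0.21 without that array, and the cyclin gene Ccnd1 by 0.23. Afp, the fetal liver protein alpha-fetoprotein, read -2.10, -1.85, -1.58, -1.63 and -1.84 at 2 mg/kg. At 4 mg/kg it read 0.08, -1.05, -1.48 and -1.52. The groups did not overlap, yet replicates 3 and 4 of 4 mg/kg lay within 0.11 of the 2 mg/kg arrays on their own slides. The Afp difference was 0.81 (95% interval 0.19 to 1.43). Without the pancreas-rich arrays, 1 of which is 4 mg/kg replicate 1, it was 0.33. The tubulin gene Tubb2a differed by 0.41 (95% interval -0.26 to 1.08).

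**Figure D4:**
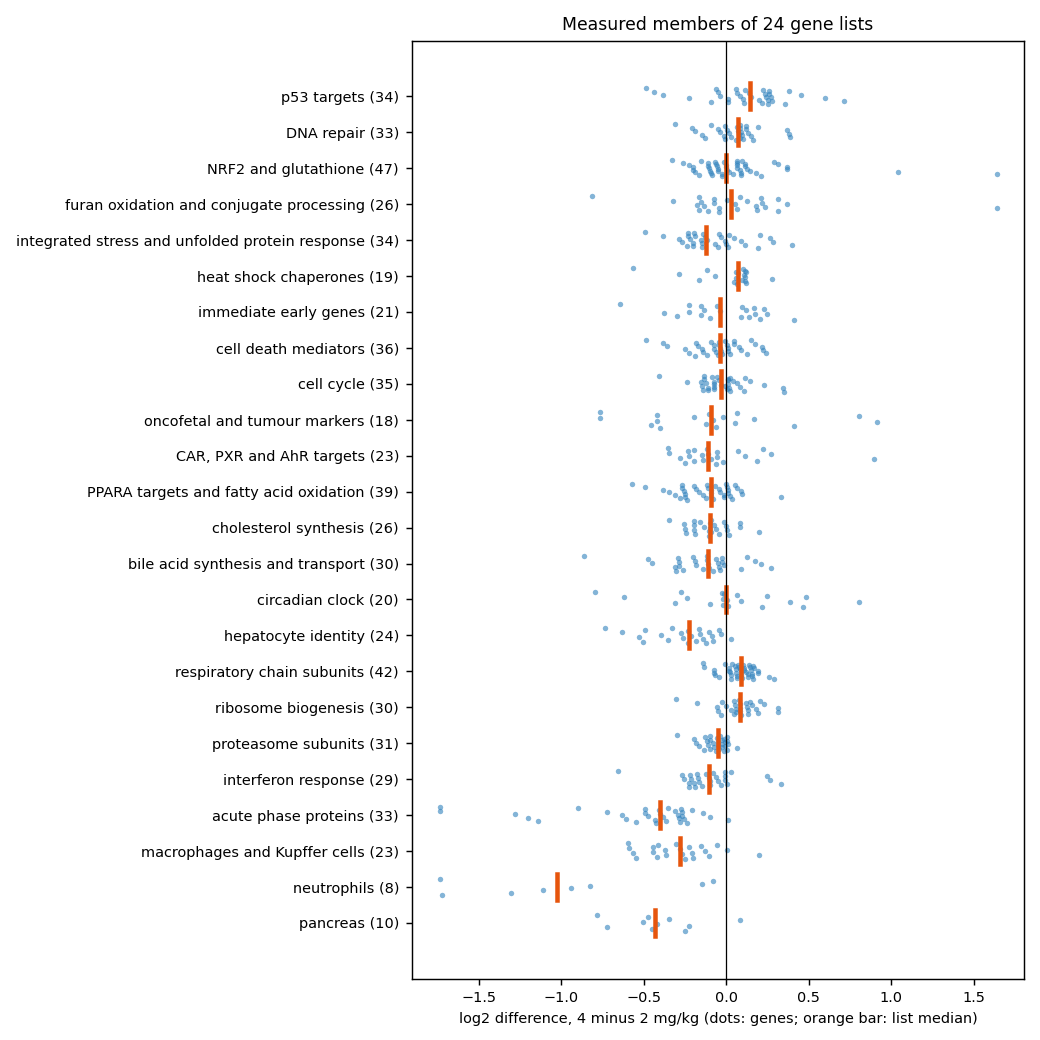
Each dot is 1 measured gene of a list, placed at its log2 difference (4 minus 2 mg/kg), and each orange bar is the list median, with the number of genes measured in brackets; 24 of 38 lists are drawn. The p53 median is 0.15, the acute-phase median -0.40 and the neutrophil median -1.03, and 0 of the genes passed the test.

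The smallest p-values with a gene name and a higher mean at 4 mg/kg belonged to genes of varied function. Lpin1, a phosphatidate phosphatase of fat synthesis that fasting and glucocorticoids also control, read 2.41, 2.29, 2.44, 2.33 and 2.63 at 2 mg/kg and 3.29, 3.55, 3.33 and 3.20 at 4 mg/kg. The groups did not overlap, and within the 4 shared slides the difference was 1.00, 1.14, 0.86 and 0.89. The fit gave 0.92 (SE 0.23, 95% interval 0.44 to 1.40), 1.90-fold, with an adjusted p in limma of 0.923. Controls read 2.76, 2.55, 2.99, 2.96 and 4.17, which spread more widely than either dose, and the 8 mg/kg arrays ran from 2.45 to 3.1. The 4 mg/kg values lay inside the range of the controls only through control replicate 5 at 4.17. They lay above every other control. A second probe of Lpin1 gave 1.22.

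Bid, which links death receptors to mitochondria, differed by 0.22 with groups that did not overlap, and Gart, an enzyme of purine synthesis, by 0.38. Gzmm, a protease of natural killer cells, differed by 1.16, the notch cofactor gene Maml3 by 0.71, and the growth-arrest gene Cdkn1c by 0.38. The remaining genes of this rank were 3110082I17Rik (0.61), Amer3 (0.64), Hemk1 (0.33), Tbx6 (0.50) and Olfr1131 (0.63). A second, dimmer probe of Tbx6 gave -0.04 where the brighter gave 0.50.

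Among genes with a lower mean at 4 mg/kg, Crygn, which encodes a lens-type crystallin, had the smallest p of all named genes. It read 5.03, 5.94, 6.10, 5.29 and 5.22 at 2 mg/kg and 3.42, 3.51, 3.26 and 4.60 at 4 mg/kg. The groups did not overlap, and the difference was -1.82 (SE 0.33, 95% interval -2.50 to -1.14) with an adjusted p of 0.150 in limma. Under other processing choices and array sets the difference ran from -2.12 to -0.60, which reaches outside that interval. The probe was well above background on all 5 arrays at 2 mg/kg and on 3 of 4 at 4 mg/kg. Controls ranged from 3.55 to 4.89 and the 8 mg/kg arrays from 4.39 to 5.46, so the mean rank of the doses did not follow the dose.

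Nfil3, a repressor of the circadian clock and of fasting responses, was held tightly within each dose. It read 0.16, 0.12, 0.03, 0.13 and 0.05 at 2 mg/kg and -0.42, -0.50, -0.60 and -0.56 at 4 mg/kg. The within-slide differences ran from -0.69 to -0.54, and the fit gave -0.62 (SE 0.14, 95% interval -0.91 to -0.32) with an adjusted p in limma of 0.717. The controls read 0.34, 0.07, -0.18, -0.30 and -0.72, a range that covers both doses. That range took in the 4 mg/kg values only through control replicate 5 at -0.72, and every other control lay above them. Of the other clock genes, Arntl, which encodes the core activator BMAL1, differed by 0.01 and its output gene Dbp by 0.22 (95% interval -0.25 to 0.69). The 20 measured clock genes divided into 10 positive and 10 negative.

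H2-K1, a class I antigen-presenting molecule, read 2.93, 3.05, 3.04, 3.20 and 3.18 at 2 mg/kg and 2.72, 2.75, 2.84 and 2.82 at 4 mg/kg. The groups did not overlap, and the difference of -0.30 (95% interval -0.46 to -0.14) was small. A second probe of H2-K1 gave -0.10. The 8 mg/kg arrays lay between 2.60 and 2.74. Psma5, a proteasome subunit, differed by -0.30 with groups that did not overlap, and Psma7 by -0.18. All 31 listed proteasome genes were measured, 26 were negative, the median was -0.05, and every one had a 95% interval within a 1.5-fold difference. Ppm1m (-0.33), Chpf2 (-0.29), Slc39a1 (-0.30), Cetn1 (-0.41) and Zfp799 (-1.12) also had groups that did not overlap, while Ctsc (-0.49), B3glct (-0.43) and Ahnak (-0.41) had groups that did. Zfp799 was well above background on 1 of the 4 arrays at 4 mg/kg. The 4 Ahnak probes ran from -0.41 to 0.21.

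2 transcripts without a matched symbol had small p-values in the same direction. ENSMUST00000115431 read -0.96, -0.86, -0.80, -1.11 and -0.76 at 2 mg/kg and -1.70, -1.56, -1.75 and -1.87 at 4 mg/kg. Its difference was -0.82 (SE 0.13), the controls lay between -1.27 and -0.69, and the 8 mg/kg arrays between -1.27 and -0.98, so the 4 mg/kg arrays were the lowest of these groups. It was well above background on 2 of the 4 arrays at 4 mg/kg. ENSMUST00000115838 differed by -2.68 (SE 0.49), with groups that did not overlap and 1 of 4 arrays well above background at 4 mg/kg. Its adjusted p in limma was 0.150 and was 0.0465 with slide as a block, the only call of that fit.

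Acute-phase genes had lower means at 4 mg/kg, with high values on 2 arrays of the lower dose. Of 34 listed genes 33 were measured and 32 were negative, with a median of -0.40, and 7 had an unadjusted p under 0.05 in that direction (2.71% of all genes did), with 0 passing the test. The serum amyloid gene Saa1 read 2.86, 3.31, 3.01, 7.17 and 6.88 at 2 mg/kg and 3.02, 3.04, 2.63 and 2.96 at 4 mg/kg. Only replicates 4 and 5 of 2 mg/kg were high, and the other 3 lay between 2.86 and 3.31, near the range of the higher dose. The iron-binding protein gene Lcn2 had the same order, at -0.41, -0.11, 0.16, 4.82 and 2.65 against -0.47, -0.39, 0.18 and -0.56.

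Without both of those arrays the Saa1 difference went from -1.74 to -0.15 and that of Lcn2 from -1.73 to -0.19. The metallothionein genes Mt1 and Mt2, which bind zinc and other metals, went from -1.20 to -0.51 and from -1.28 to -0.49. The acute-phase median went to 0.00, with 18 of 33 negative and 0 at an unadjusted p under 0.05. Leaving out replicate 4 alone gave a median of -0.31, and leaving out replicate 5 alone gave -0.15.

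The neutrophil list and the macrophage and Kupffer cell list averaged highest on 1 of the same arrays, 2 mg/kg replicate 4, while T and NK cell genes did not. The 8 measured neutrophil genes of 16 listed were all negative, with a median of -1.03, which was -0.43 without 2 mg/kg replicate 4 and -0.18 without replicates 4 and 5. Of 23 measured macrophage and Kupffer cell genes 21 were negative with a median of -0.28, and -0.13 without 2 mg/kg replicate 4. The macrophage and Kupffer cell median was -0.33 without 2 mg/kg replicate 5 and -0.51 without the pancreas-rich arrays. A separate set of 4 Kupffer cell markers did not set replicate 4 apart. They averaged 0.42 there, beside 0.45 on 2 mg/kg replicate 5 and 0.48 on 4 mg/kg replicate 1. Of these markers only Marco was highest on replicate 4, at 7.86, and Clec4f read 7.26. Of 11 measured T and NK cell genes 7 were positive with a median of 0.12, and on replicate 4 they averaged -0.14 from the mean of the 9 arrays. The T and NK cell median turned to -0.13 without the pancreas-rich arrays and to -0.02 without replicates 4 and 5 of 2 mg/kg. Of 8 measured B and plasma cell genes 7 were negative with a median of -0.13. The B-cell chemokine gene Cxcl13 read 4.49, 5.09, 5.68, 7.55 and 5.64 at 2 mg/kg and 4.91, 3.46, 3.69 and 3.38 at 4 mg/kg, where 1 of 4 arrays was well above background. Its difference was -1.83, and -1.23 without replicates 4 and 5. Cxcl10, an interferon-induced chemokine, had a difference in the other direction, 0.33.

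Hepatocyte genes were highest on 2 mg/kg replicate 5, and lists of liver metabolism had small medians. Of 24 measured hepatocyte identity genes 23 were negative with a median of -0.22, and the value was 0.02 without that replicate and -0.01 with slide as a block. Bile acid genes were negative in 25 of 30 with a median of -0.11, or -0.07 without that replicate. Cholesterol synthesis genes were negative in 21 of 26 with a median of -0.10, or -0.26 without the pancreas-rich arrays. Fatty acid oxidation genes were negative in 29 of 39 with a median of -0.10, or -0.18 without 2 mg/kg replicate 4. Among the bile acid genes Akr1d1, a bile acid reductase, differed by -0.86. Respiratory chain subunits were positive in 35 of 42 with a median of 0.09, which became 0.02 without 2 mg/kg replicate 4. The whole set of 42 had 95% intervals within a 2-fold difference. Ribosome biogenesis genes were positive in 23 of 30 with a median of 0.08.

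Interferon-response genes were negative in 24 of 29 with a median of -0.10, and pericentral hepatocyte genes in 19 of 23 with a median of -0.20. The pericentral median was -0.08 without 2 mg/kg replicate 5 and -0.05 with slide as a block, and Tbx3, a target of Wnt signalling, differed by -0.41. Targets of the xenobiotic sensors CAR, PXR and AhR were negative in 17 of 23 with a median of -0.11 and 0 at an unadjusted p under 0.05. That median turned to 0.12 without 2 mg/kg replicate 5, where the list averaged 0.87 above the mean of the 9 arrays, and to 0.06 with slide as a block. Of 36 measured cell death mediators 22 were negative with a median of -0.04. Medians were -0.06 for sinusoidal and vascular endothelium (0.00 without that array), -0.06 for stellate cells and matrix and 0.03 for cholangiocytes and progenitors. Among the latter, the bile duct keratin gene Krt7 differed by -1.04, with 1 of 4 arrays well above background at 4 mg/kg. Among fatty acid synthesis genes the desaturase Scd1 differed by -0.64, and the fasting genes Slc37a4 and Foxo1 differed by 0.22 and 0.20.

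The direct comparison was also set beside the genes each dose called against the vehicle controls. At 4 mg/kg limma called 16 genes (0.0804%) against control, 10 higher and 6 lower, and at 2 mg/kg it called 2 (0.0101%), 1 in each direction. These comparisons share arrays with the direct one, so their values are given side by side and not tested against each other. Among the 16 at 4 mg/kg were Cdkn1a (1.29 against control), Aen (0.71), Gdf15 (1.30), Ahnak (-0.98) and ENSMUST00000115431 (-0.78). None of these was called at 2 mg/kg against control. Tubb4b, a tubulin gene, was 0.84 above control at 4 mg/kg and 0.44 above at 2 mg/kg, a direct difference of 0.39 (95% interval 0.12 to 0.67). Tomm40l, of the mitochondrial import pore family, was 0.88 and 0.72 above control, a direct difference of 0.16 (95% interval -0.14 to 0.46). Car15, a carbonic anhydrase gene, was 0.94 and 0.39 above control and differed directly by 0.55 (95% interval 0.18 to 0.92). Of the 2 called at 2 mg/kg, Fam13b was 0.60 above control at that dose and 0.40 above at 4 mg/kg. Of the genes called at either dose, 0 passed the direct test in limma, and for several the interval of the direct difference held 0.

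The 8 mg/kg and control arrays gave a further list of genes. Arrays of 2 and 4 mg/kg entered its choice through the shared estimate of the spread. They also entered through the probe filter and the pick of the brightest probe, but not through the difference tested. Between 8 mg/kg and control limma called 1593 genes (8.01% of those tested), and between 8 and 4 mg/kg it called 41 (0.206%), 34 higher and 7 lower at 8 mg/kg. Of the 845 genes higher at 8 mg/kg than in controls, 549 (65.0%) had a higher mean at 4 than at 2 mg/kg, and the median difference was 0.06. Of the 748 genes lower at 8 mg/kg than in controls, 518 (69.3%) had a lower mean at 4 than at 2 mg/kg, with a median of -0.06. Among the 18306 genes not called at 8 mg/kg, 45.8% were positive with a median of -0.02.

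The same tilt was seen at an unadjusted p under 0.05. In the 845 genes, 73 (8.64%) had a higher mean at 4 mg/kg at that level and 8 (0.947%) a lower one. In the 748 genes, 7 (0.936%) had a higher mean and 54 (7.22%) a lower one. For all genes the shares were 2.11% and 2.71%. The p-values of both comparisons use the same estimate of the spread, so these shares are not independent of how the genes were chosen. Beyond Cdkn1a, H2-K1 and Gsta1, this set of 1593 held Nrp2, a semaphorin and growth factor receptor, with a difference of -0.38, and the cytoskeletal gene Ajuba, at 0.52. It also held genes that went against the tilt, such as Dnaaf6b at -1.96, which was 2.41 above control at 8 mg/kg.

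By array, the tilt was not a clean separation of the doses. Averaged over the 845 genes, the 2 mg/kg arrays deviated by -0.11, -0.06, -0.04, 0.00 and 0.04 from the mean of the 9 arrays, and the 4 mg/kg arrays by 0.09, 0.07, 0.03 and -0.03. The ranges overlapped through 2 mg/kg replicate 5 and 4 mg/kg replicate 4. Within slides the median difference of the 845 genes was 0.08, 0.14, -0.01 and 0.06, so that it was not positive on the slide that holds replicate 4 of both doses. For the 748 genes it was -0.09, -0.16, 0.07 and -0.10. With the 4 pancreas-rich arrays left out of both comparisons, 682 genes were higher at 8 mg/kg than in controls, of which 63.0% were positive at 4 against 2 mg/kg. In that fit 558 were lower, of which 65.8% were negative, and over all genes 47.2% were positive.

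**Figure D5:**
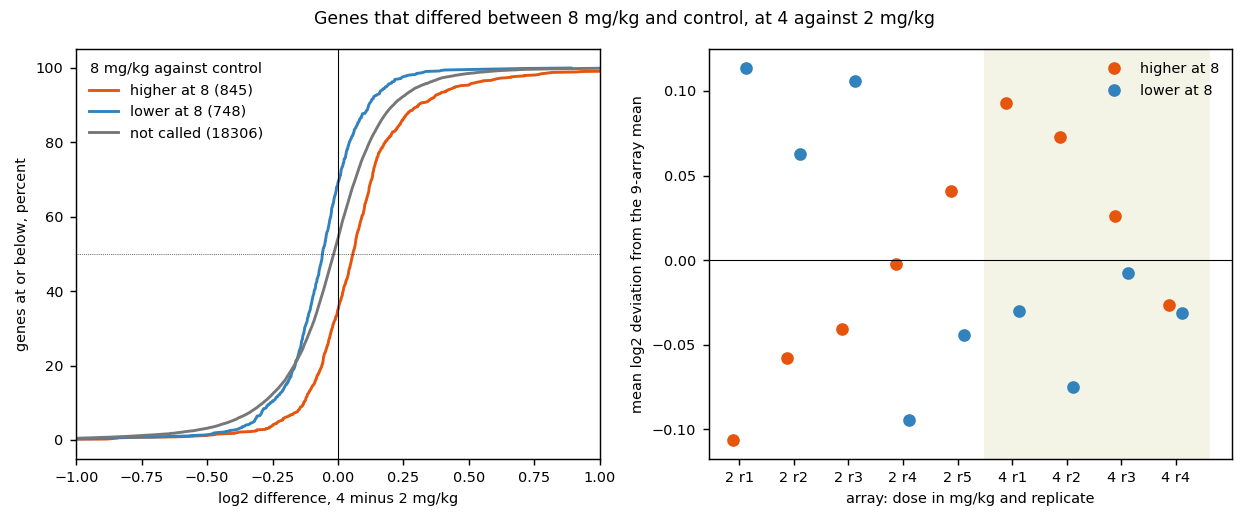
Left, the cumulative percent of genes at or below each log2 difference (4 minus 2 mg/kg) for genes called higher (845), lower (748) or not called (18306) at 8 mg/kg against control; right, the mean log2 deviation of the called genes on each of the 9 arrays from their mean (r for replicate; shaded, 4 mg/kg). The 3 curves cross 50 percent at 0.06, -0.06 and -0.02, and the points of the 2 doses overlap for both sets.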

How the data were processed

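Two-colour Agilent SurePrint G3 mouse arrays were read from their scanner files. Per the file headers, Feature Extraction 10.7.3.1 produced the deposited intensity values, background-subtracted and dye-normalised processed signals for Cy5 (liver) and Cy3 (reference), with marks for flagged spots and for spots well above background. The authors also deposited a value table of linear ratio values. Its median per array was 0.974 to 0.986 on the 9 arrays and its log2 correlated at 0.881 to 0.915 with the values used here; how it was centred and scaled is not given in the sources used here.

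From the processed signals, log2(Cy5/Cy3) was normalised by loess within each array (span 0.3, 4 iterations; control and flagged spots at weight 0; R 4.3.3, limma 3.58.1). A probe was kept (25576 of 55681) if 4 or more arrays of some dose group had it well above background. A kept probe was then used only if each group had at least 3 values. The brightest probe stood for a gene, named by accession where a RefSeq table (GRCm38.p6) held it: 12927 of 19899 genes had a symbol and the rest keep the array's identifier. limma (lmFit, eBayes) was fitted over all 23 arrays with dose group as a factor, on 18 residual degrees of freedom, and the contrast 4 minus 2 mg/kg was tested two-sided, with Benjamini-Hochberg adjustment over all genes and a threshold of 0.05. The number of arrays limits the precision. The fit was tested on simulated data with independent noise and no slide or tissue effects, so that test cannot show how the fit handles such effects. The 25 samples of the study's own text include 2 that were not analysed here.

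Arrays lie on 5 slides, 4 of which hold 1 array of each dose. Alternatives were the 9 arrays alone, slide or replicate number as a block, Aquantile, median centring, normexp, the deposited ratios, no filter or a stricter one, the mean over probes, and arrays left out. The blocks of slide without the pancreas-rich arrays, the removal of replicates 4 and 5 of 2 mg/kg, and the genes called at 8 mg/kg were added after seeing the data. The members, the 38 gene lists and the tests were chosen with earlier results of these data known. Genes were named by a rule: the 12 smallest p-values in each direction, the smallest p in each list, a set of known furan and stress genes, and pancreatic and neutrophil markers. The first part took genes with a matched symbol, well above background on 4 or more arrays at 2 or at 4 mg/kg. List members with an unadjusted p under 0.05, genes called against control, the unmatched identifiers, Nrp2, Ajuba and Dnaaf6b were named after their values were seen. A few genes that the rule or a call names are not reported here.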

Additional observations from a re-analysis of the deposited data

Results flagged for a closer look

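Of 164 sets of values (a gene or marker set within 1 dose), 13 had a highest or lowest array whose gap to its neighbour was large for the group's range by Dixon's criterion, and chance alone would single out about 1 in 20 such sets. At 2 mg/kg, replicate 4 stood apart for the macrophage gene Aif1 at 3.03 (others 1.88 to 2.19), for Hmox1 at -0.62 (others -1.96 to -1.61) and for the neutrophil marker set at 3.34 (others -0.77 to 0.14). Replicate 5 stood apart for Cyp2e1 at 8.03 (others 6.72 to 7.07), for Psma5 at 0.0591 (others -0.30 to -0.20) and for the T-cell gene Cd3e at -1.10 (others -0.69 to -0.61).

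At 4 mg/kg, replicate 1 stood apart for the pancreatic markers at 3.53 (others -1.70 to -1.53), the fat-cell markers at 3.86 (others -2.46 to -1.62) and the stellate cell markers at 0.59 (others -0.34 to -0.21). It also stood apart for the lysozyme gene Lyz1 at 1.74 (others 0.88 to 0.95), Mdm2 at -1.18 (others -0.84 to -0.80) and Zfp799 at -0.56 (others -1.29 to -1.21). Replicate 3 stood apart for Ahnak at -0.25 (others -0.62 to -0.57).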

How the results depend on the processing

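The count of genes past an adjusted p of 0.05 in limma was 0 in the reported fit and was above 0 in 6 of 23 alternatives. It was 1 with slide as a block, 2 with the replicate number as a replicate block, 1 with median centring and 1 with slide as a block and no pancreas-rich arrays; leaving out single arrays gave 0 to 1. The calls under the replicate block were ENSMUST00000115431 (-0.78) and ENSMUST00000115838 (-2.77), and the latter was also the call without 4 mg/kg replicate 2 (-3.24, adjusted p 0.0113); without 4 mg/kg replicate 4 the call was Crygn (-2.12, adjusted p 0.0487). The median-centring call was ENSMUST00000115431 (-0.80). The cause of these calls was not tested. Other alternatives gave smaller differences for the same transcripts. ENSMUST00000115838 ran from -3.24 to -0.45, ENSMUST00000115431 from -0.87 to -0.29 and Crygn from -2.12 to -0.60. Zfp799 ran from -1.34 to -0.25, and none of these changed sign. Arrays of 1 number correlated in their deviations at 0.00652, 0.153, 0.401 and 0.164, and arrays of 1 slide at 0.194, 0.0688, 0.164 and 0.401. Replicates 3 and 4 of both doses also share a slide, and with 1 number near 0 the numbers were not taken to pair the animals. Of 75 genes named by the rule, 10 turned sign under some alternative, as did 24 of 38 list medians. Genes at an unadjusted p under 0.05 ran from 716 to 1555.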
